A study of Mus musculus with 2 samples.

Results

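The genes described here are 9 receptors with which enteroendocrine cells sense nutrients and related lipids, taken by symbol from the 32285 genes of the deposited count tables: Ffar1, Ffar2, Ffar3, Ffar4, Gpr119, Gpbar1, Casr, Cnr1 and Lpar5. Enteroendocrine cells are scattered hormone cells of the gut epithelium. Receptors of this kind report fats, fermentation products, bile acids and amino acids in the gut to the cell, and their signals change the release of hormones such as GLP-1, GIP and CCK. Ffar1 and Ffar4 bind long-chain fatty acids, Ffar2 and Ffar3 short-chain fatty acids, Gpr119 fatty acid ethanolamides and monoacylglycerols, and Gpbar1 bile acids. Casr senses calcium and amino acids, Cnr1 is the cannabinoid receptor CB1, and Lpar5 binds lysophosphatidic acid and responds to protein digests.

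The cells were Tomato+ epithelial cells sorted from mouse small intestine and profiled by droplet single-cell RNA-Seq. Both groups carried the strain elements Neurog3Cre and Rosa26tdtomato, so that Cre made under control of Neurog3, which endocrine progenitors express, switched on the red reporter in endocrine cells and in the goblet, Paneth and other cells that descend from Neurog3-expressing cells. The mice labelled NFKO had 2 floxed FoxO1 alleles (FoxO1 f/f) besides, which the same Cre should delete in that lineage and in no other cells. Each group is 1 library pooled from the whole small intestine of 4 to 5 mice aged 4 to 6 weeks, with the attached pancreas removed, so that differences between mice, gut segments or sorts cannot be told apart from a difference between the groups.

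No group had a replicate library, so nothing was tested, and every interval given is a 95% interval for counting error only. The cells that passed the filters numbered 3003 in WT and 5292 in the NFKO-labelled library, with median depths of 16883 and 17035 unique molecular identifiers (UMIs, 1 per captured transcript molecule), and 6 cell barcodes occurred in both libraries. The transcript of the targeted gene Foxo1 had a ratio of the NFKO-labelled library over WT of 1.07 (0.987 to 1.17) over all cells and of 0.825 (0.720 to 0.948) in endocrine cells, with no fall counted over all cells. The counts come from 3′ ends, and a transcript lacking only the floxed part could still be counted. The libraries also differed in the sex of the mice: Xist was at 0.383 CPM in WT and 565 CPM in the other library, and 80.7% of WT cells against 6.75% of the others carried Y-linked transcripts without Xist. These male-typed cells are used below as a check. Cells of 9 clusters with enteroendocrine markers, 1040 in WT and 2017 in the NFKO-labelled library, are called enteroendocrine-like, or endocrine for short. The receptor genes themselves took no part in the clustering.

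Endocrine cells were divided by the hormone transcript with most UMIs: K (Gip, 210 and 422 cells in WT and the NFKO-labelled library), L (Gcg or Pyy, 138 and 152), I (Cck, 109 and 212), N (Nts, 66 and 131), D (Sst, 40 and 95) and X (Ghrl, 101 and 220). Cells without a dominant peptide hormone were called enterochromaffin (EC, 222 and 537) by Tph1 and Tac1, or progenitors (92 and 175) by Neurog3, and 62 and 73 cells were left without a subtype. Levels are given in CPM, a gene's UMIs divided by the sum over all genes in cells of that kind in a library, times 1000000. Shares of cells with at least 1 UMI are given after thinning to 5000 UMIs a cell, a depth that 195 endocrine cells in WT did not reach, nor 201 in the NFKO-labelled library. The loss was uneven. In WT it took 77 of 210 K cells, 36 of 66 N cells and 16 of 40 D cells. In the other library it took 46 of 422, 25 of 131 and 4 of 95. Thinned shares in these subtypes thus leave out a larger part of the WT cells. Levels of different genes were not compared with each other, because the counts were made from 3′ ends and were not scaled by length.

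The 3 free fatty acid receptor genes Ffar1, Ffar2 and Ffar3 lie together on chromosome 7 of GRCm38, all on the minus strand. Ffar1 (ENSMUSG00000044453) spans 30857390 to 30861564, Ffar3 (ENSMUSG00000019429) 30854330 to 30856178, and Ffar2 (ENSMUSG00000051314) 30818348 to 30823775. The 3′ end of Ffar1 was 1211 bases from the 5′ end of Ffar3, and no annotated gene overlapped either. These 2 neighbours had parallel levels over endocrine subtypes and opposite ones in tuft cells (below), so their promoter windows are printed here, from 250 bases before to 50 bases after the RefSeq start on GRCm38.p6, read 5′ to 3′ on the gene's strand. The Ffar1 window is chr7:30861421-30861720 and the Ffar3 window chr7:30856129-30856428. Capitals mark the only match to any of 3 short motifs searched on both strands.
Ffar1: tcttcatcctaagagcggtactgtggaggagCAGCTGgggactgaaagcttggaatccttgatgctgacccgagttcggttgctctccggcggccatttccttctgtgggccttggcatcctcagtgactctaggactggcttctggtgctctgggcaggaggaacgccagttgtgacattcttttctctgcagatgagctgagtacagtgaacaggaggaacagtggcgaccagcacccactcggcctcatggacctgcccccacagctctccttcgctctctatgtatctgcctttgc
Ffar3: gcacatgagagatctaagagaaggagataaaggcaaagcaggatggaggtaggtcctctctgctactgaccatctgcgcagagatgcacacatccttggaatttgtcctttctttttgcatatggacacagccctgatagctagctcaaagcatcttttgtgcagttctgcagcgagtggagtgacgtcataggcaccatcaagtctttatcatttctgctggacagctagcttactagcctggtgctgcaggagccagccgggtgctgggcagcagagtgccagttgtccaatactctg
The motifs were a FoxO core (TGTTTAC), an E-box of the kind bound by basic helix-loop-helix factors (CAGCTG) and an octamer of POU factors (ATGCAAAT). The E-box stood in the Ffar1 window and in no other of the 15 windows of the 9 genes, and it was present in 16.3% of 32851 promoter windows of all genes. The FoxO core was in 0 of the 15 windows, against 3.65% of all windows, and the octamer in 0 against 1.74%. A missing match says only that these letters are not in these windows. The other 6 genes, all protein-coding like these, are Ffar4 (ENSMUSG00000054200, chromosome 19, 38097071 to 38114263), Gpr119 (ENSMUSG00000051209, chromosome X, 48667979 to 48674478), Gpbar1 (ENSMUSG00000064272, chromosome 1, 74278550 to 74279624), Casr (ENSMUSG00000051980, chromosome 16, 36493696 to 36562141), Cnr1 (ENSMUSG00000044288, chromosome 4, 33924593 to 33948831) and Lpar5 (ENSMUSG00000067714, chromosome 6, 125067920 to 125082472).

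As a group the receptors were counted mainly in endocrine cells. In WT, 7 of the 9 had at least 50 UMIs, and 6 of these 7 (all but Ffar4) were at least 2-fold higher in endocrine cells than in all other kept cells, while 43.3% of all genes with that minimum passed the same fold. In the NFKO-labelled library, 8 of the 9 had the minimum and 7 of these 8 passed (again all but Ffar4), against 39.1% of all genes. At 5000 UMIs, 83.4% (80.8 to 85.9) of WT endocrine cells and 86.8% (85.2 to 88.4) of the others held at least 1 of the 9 transcripts, compared with 26.3% and 36.7% of non-endocrine cells. The plot of receptors per cell shows that cells with 3 or more lay mainly among K, L, I, N and X cells. In L cells 43.0% held at least 3 in both libraries, and in EC cells 0 of 206 and 0 of 482 did, which allows up to 1.46% and 0.622%.

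**Figure D1:**
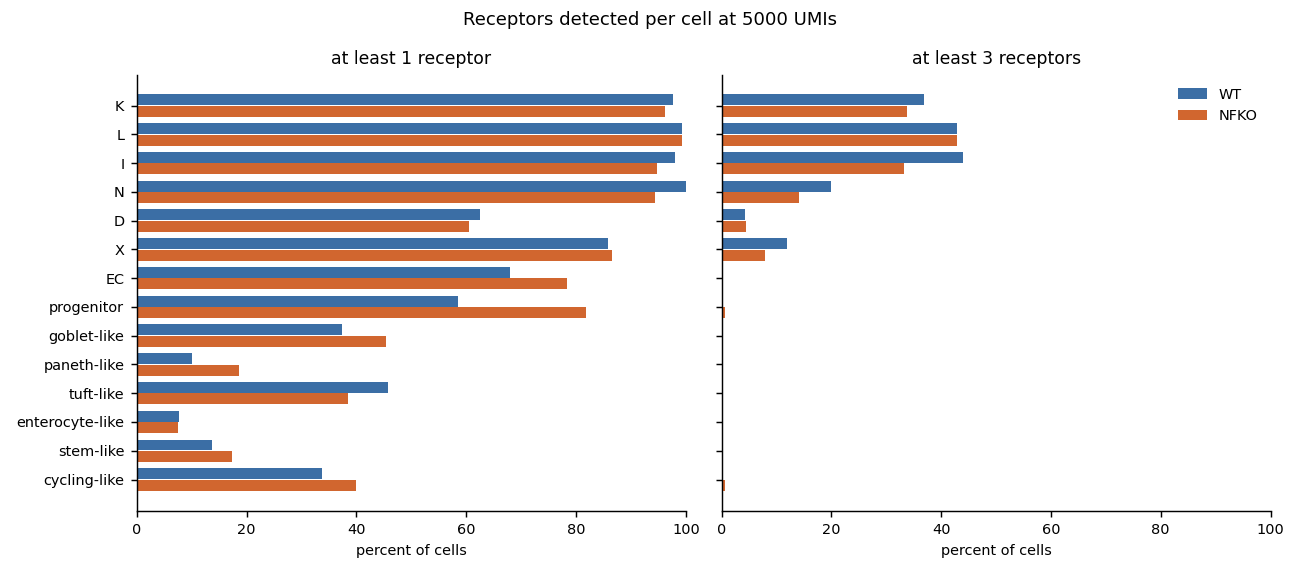
Percent of cells (horizontal axis) of each hormone subtype or class (vertical axis) in which at least 1 (left) or at least 3 (right) of the 9 receptor transcripts were detected at 5000 UMIs per cell, in WT (blue) and in the NFKO-labelled library (orange). L cells reach 43.0% with at least 3 in both libraries, and goblet-like, Paneth-like, tuft-like, enterocyte-like and stem-like cells are at 0 there.

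Ffar1, the receptor for long-chain fatty acids that couples to Gq, marked L, N, I and K cells. Its level in L cells was 536 CPM (503 to 570) in WT and 524 CPM (495 to 553) in the NFKO-labelled library, and in N cells 513 CPM (453 to 578) and 507 CPM (476 to 540). I cells held 463 CPM (429 to 499) and 360 CPM (341 to 379), and K cells 225 CPM (204 to 248) and 182 CPM (172 to 193). L and N cells lay together at the top with overlapping intervals in both libraries, I cells overlapped N cells in WT only, and K cells came clearly below. The share of cells with Ffar1 was 92.2% (118 of 128) and 85.9% (116 of 135) in L cells and 62.4% and 52.9% in K cells; at the full depth it was 96.4% and 90.8% in L cells and 63.8% and 75.8% in K cells, which differ in depth between the libraries. D cells had 5 and 8 Ffar1 UMIs in all, and EC cells 3.95 and 6.74 CPM. Outside the endocrine cells Ffar1 was at 1.00 CPM in WT and 1.75 CPM in the other library. Goblet-like cells had it in 0.351% and 0.599% of cells after thinning, and in 1.31% and 2.03% at the full depth. At that depth they were deeper than endocrine cells (median 23901 and 23207 UMIs against 11784 and 15042). The low EC and D counts are to be read against these counts outside the endocrine cells, in which the part of free RNA and doublets was not tested.

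Among I cells, Ffar1 was lower in the NFKO-labelled library (ratio 0.777, 0.708 to 0.852), and the cells came from different clusters. Cluster 21, with Pzp and Cck among its leading genes, held 67 I cells of the NFKO-labelled library and 13 of WT. Ffar1 stood at 432 CPM in WT and 288 CPM in the other library there. The ratio was 0.667 (0.528 to 0.851) in cluster 21, 0.721 (0.589 to 0.887) in cluster 19 and 0.867 (0.745 to 1.01) in cluster 7. In the I cells of cluster 2 the level was 289 and 294 CPM (ratio 1.02, 0.804 to 1.30), so that 3 of the 4 clusters had a ratio below 1, in 2 of them with an interval below 1. X cells, named for ghrelin, had 120 CPM (101 to 141) in WT and 70.0 CPM (61.3 to 79.6) in the NFKO-labelled library, a ratio of 0.585 (0.474 to 0.725). Most X cells lay in clusters 4 and 7, with 76 and 21 of 101 in WT and 173 and 23 of 220 in the NFKO-labelled library. Those in cluster 7, the cluster led by Gcg, had 344 and 316 CPM of Ffar1 (ratio 0.919, 0.698 to 1.21), and those in cluster 4, the cluster with Neurog3, had 27.7 and 19.3 CPM (ratio 0.697, 0.425 to 1.17). Within either cluster the ratio was nearer 1 than over all X cells, with intervals that include 1. X cells of other clusters are in neither ratio. In the NFKO-labelled library clusters 4 and 7 held 52 and 114 of the 233 Ffar1 UMIs of X cells. Among male-typed X cells the ratio was 0.123 (0.0391 to 0.294), from 119 UMIs in 86 WT cells and 5 UMIs in 21 cells of the other library.

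Ffar2, a receptor for acetate and propionate, had another order. It was highest in X cells (376 CPM, 342 to 412, in WT and 361 CPM, 341 to 382, in the NFKO-labelled library), in EC cells (251 and 314 CPM) and in progenitors (204 and 393 CPM). EC cells of cluster 5 had 239 and 328 CPM (ratio 1.37, 1.24 to 1.53). Those of cluster 11 had 389 and 297 CPM (ratio 0.764, 0.625 to 0.941). I, D and L cells were in the middle, at 138 and 176 CPM, 118 and 141 CPM, and 117 and 114 CPM. N cells (58.5 and 31.1 CPM) and K cells (18.4 and 19.3 CPM) were lowest. All 210 WT K cells and 396 of the 422 others lay in cluster 2, where Ffar2 was at 18.4 and 12.2 CPM (ratio 0.663, 0.435 to 1.03). K cells thus held the most Cnr1 and the least Ffar2 of the named subtypes, and 7.52% and 6.65% of them had an Ffar2 transcript, against 78.3% and 81.6% of X cells. Across all endocrine cells Ffar2 was found in 35.9% of cells with Ffar1 and in 56.3% of cells without it in WT, and in 30.4% and 62.4% in the NFKO-labelled library. Within subtypes this difference was not uniform: among I cells of the NFKO-labelled library, 54.7% of cells with Ffar1 and 55.8% of those without had Ffar2.

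**Figure D2:**
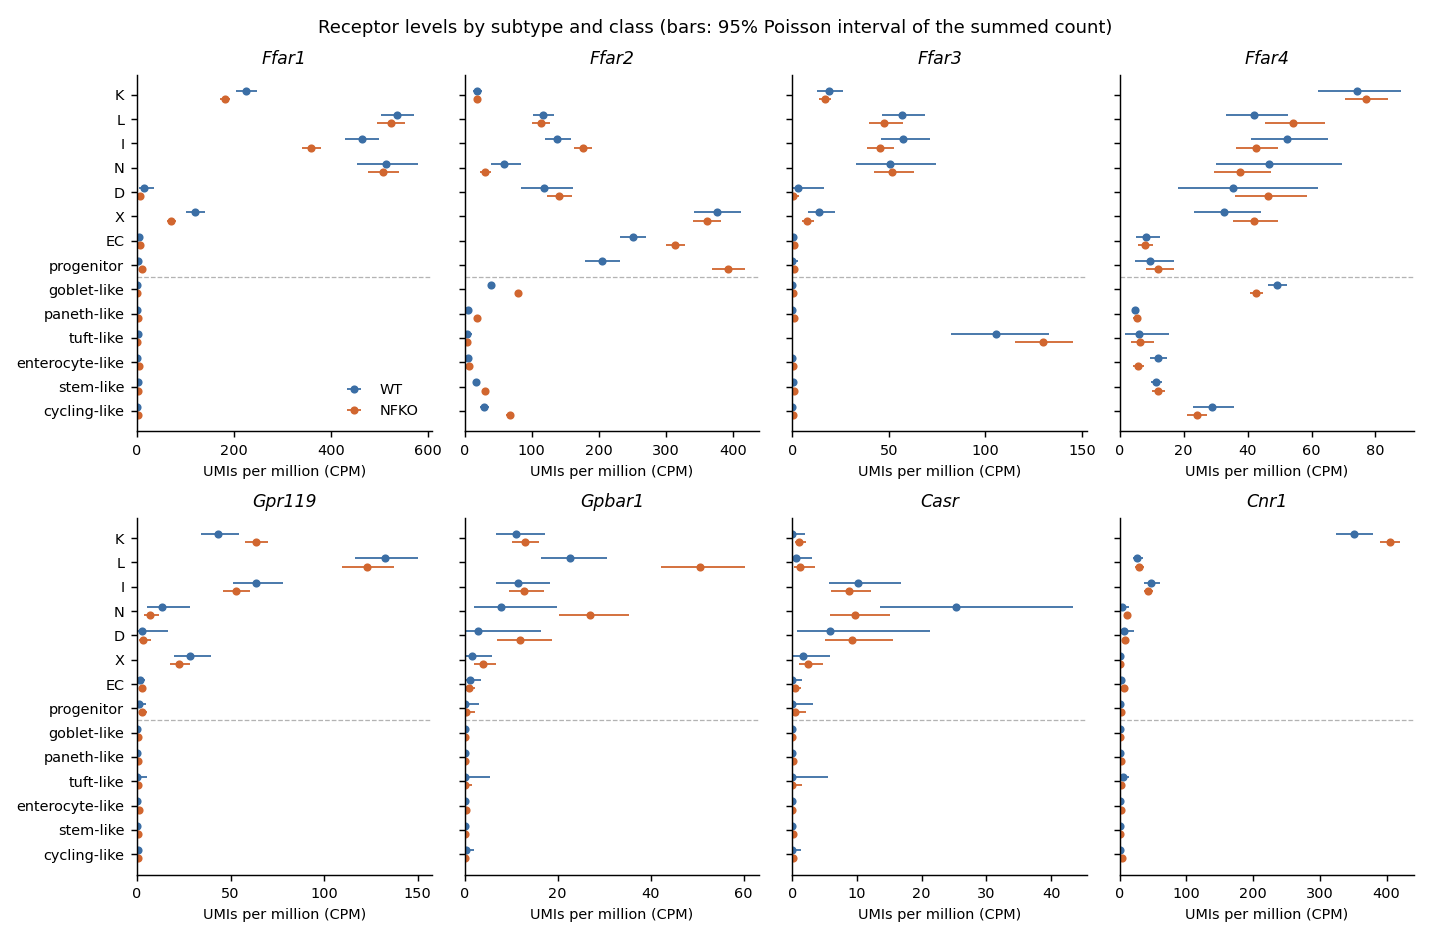
Level in CPM (horizontal axis, linear, a scale of its own in each panel) of 8 receptors in 8 endocrine subtypes (above the dashed line) and 6 other classes (below it), in WT (blue) and the NFKO-labelled library (orange), with bars for the 95% Poisson interval of the summed count. Ffar1 is high in L, N, I and K cells, Ffar2 in X, EC and progenitor cells, Ffar3 also in tuft-like cells at 105 and 130 CPM, and Cnr1 in K cells at 351 and 405 CPM.

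Ffar3, the other receptor for short-chain fatty acids, followed Ffar1 and not Ffar2 over endocrine subtypes. It stood at 56.7 CPM (46.4 to 68.6) and 47.8 CPM (39.6 to 57.3) in L cells, at 57.6 and 45.3 CPM in I cells and at 50.7 and 51.9 CPM in N cells, 3 subtypes whose intervals overlap in each library. K cells held 18.96 and 16.8 CPM, and EC cells had 1 and 7 UMIs in all. The highest level of Ffar3 in these data was in tuft-like cells, the chemosensory cells of the epithelium, at 105 CPM (82.1 to 133) in WT and 130 CPM (116 to 145) in the NFKO-labelled library. In the same tuft-like cells Ffar1 had 1 UMI in each library, so that Ffar3 was counted there without its neighbour. The share of tuft-like cells with Ffar3 was 37.5% (18 of 48) and 36.0% (45 of 125), or 34.1% and 54.1% before thinning, and goblet-like cells had 0.146 and 0.275 CPM. Over 28 points, the 14 subtypes and classes in each of the libraries, Pearson's r of log2(CPM + 1) between Ffar1 and Ffar3 was 0.71, and that between Ffar2 and Ffar3 was -0.06. With Ffar1, r was 0.94 for Gpr119, 0.90 for Gpbar1, 0.72 for Cnr1, 0.68 for Ffar4, 0.66 for Casr and 0.38 for Ffar2. With Ffar3 it was 0.65 for Gpr119 and 0.63 for Gpbar1, so a value near 0.71 was not particular to the neighbouring genes. Points from one library share its depth and its free RNA, and neighbouring subtypes share clusters, so these values only describe the pattern.

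**Figure D3:**
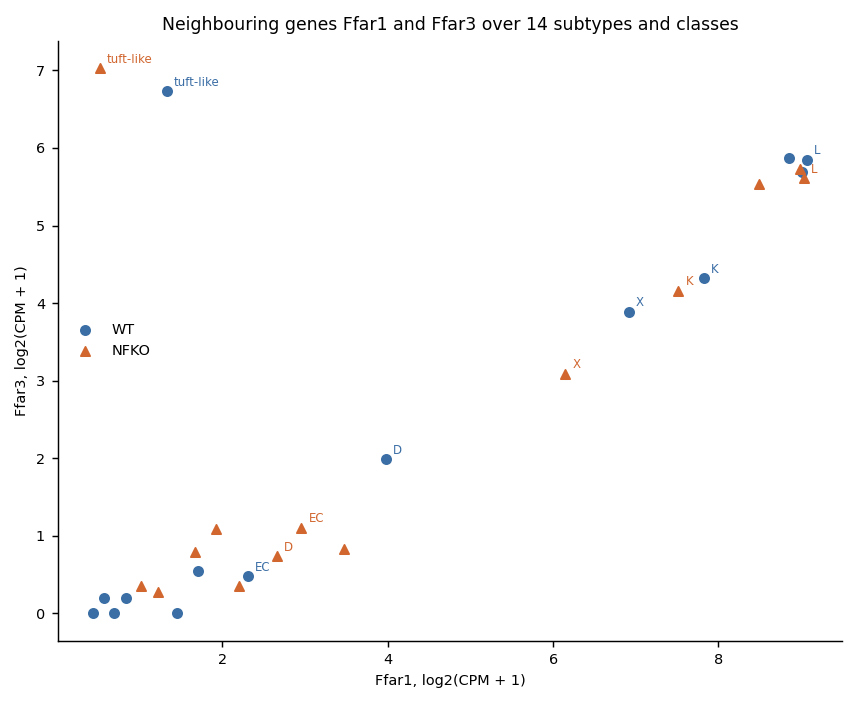
Each point is 1 of 14 subtypes and classes in WT (blue circles) or in the NFKO-labelled library (orange triangles), with log2(CPM + 1) of Ffar1 on the horizontal axis and of Ffar3 on the vertical axis. The endocrine subtypes lie along a rising line from D and EC to L cells, and the 2 tuft-like points stand apart at high Ffar3 and almost no Ffar1.

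Ffar4, a receptor for long-chain fatty acids also called GPR120, had the lowest ratio of endocrine over other cells among the receptors with at least 50 UMIs. K cells had the highest level, 74.2 CPM (62.1 to 87.9) in WT and 76.9 CPM (70.4 to 83.9) in the NFKO-labelled library. L, I, N, D and X cells lay between 32.5 and 52.2 CPM in WT and between 37.7 and 54.3 CPM in the other library, and EC cells at 8.30 and 7.89 CPM. Goblet-like cells, the mucus cells, held as much as those subtypes, with 49.3 CPM (46.3 to 52.4) and 42.8 CPM (40.7 to 44.97). That ratio was 1.70 (1.53 to 1.90) in WT and 1.62 (1.51 to 1.74) in the other library. In enterocyte-like cells Ffar4 was at 11.9 CPM (9.38 to 14.9) in WT and 5.69 CPM (4.09 to 7.72) in the NFKO-labelled library, a ratio of 0.479 (0.320 to 0.708) from 77 and 41 UMIs. These cells lay in cluster 15 (134 WT cells and 110 of the others) and in the shallower cluster 8 (123 and 246 cells). The ratio was 0.622 (0.391 to 0.966) within cluster 15 and 2.19 (0.324 to 93.7) within cluster 8, there from 1 and 12 UMIs, so that within either cluster the fall was smaller than over the class or absent. Among WT L cells, Ffar4 was detected in 1 of 51 cells with Ffar2 and in 19 of 77 cells without it, but the other library showed no such split (12 of 51 and 18 of 84).

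Gpr119, which binds oleoylethanolamide and 2-monoacylglycerols and couples to Gs, was highest in L cells, at 132 CPM (116 to 150) in WT and 123 CPM (109 to 137) in the NFKO-labelled library. I cells had 63.7 and 52.8 CPM and K cells 43.5 CPM (34.4 to 54.3) and 63.7 CPM (57.8 to 70.1), with overlapping intervals between I and K cells in both libraries. X cells were at 28.5 and 22.5 CPM, and again those in cluster 7 held more (82.7 and 99.9 CPM) than those in cluster 4 (11.1 and 9.65 CPM). N cells, which carry Ffar1 at the level of L cells, had only 13.6 CPM (5.49 to 28.1) and 7.13 CPM (3.90 to 11.96) of Gpr119. EC cells had 4 and 15 UMIs. In WT goblet-like cells 0 UMIs were counted, which allows up to 0.146 CPM, and in the other library 13 UMIs, or 0.358 CPM.

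Gpbar1, the cell-surface bile acid receptor TGR5, had its highest level in L cells, at low counts. L cells held 22.7 CPM (16.3 to 30.7) in WT and 50.7 CPM (42.2 to 60.4) in the NFKO-labelled library, from 42 and 125 UMIs. In WT this interval overlapped those of I, K and N cells and of the cells without a subtype, and in the other library it lay above all of them. K and I cells were close to each other in both libraries, at 11.2 and 12.9 CPM in K cells and 11.5 and 12.9 CPM in I cells. WT N cells had 4 UMIs and those of the other library 53, or 7.80 and 27.0 CPM. All non-endocrine cells together had 2 and 4 Gpbar1 UMIs. The share of L cells with Gpbar1 was 10.2% and 15.6% (15.9% and 41.5% before thinning).

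Casr was counted least among the receptors that passed the minimum, with 35 UMIs in WT endocrine cells and 90 in those of the NFKO-labelled library. They lay mainly in N cells (13 and 19 UMIs), I cells (15 and 34 UMIs) and D cells (2 and 14 UMIs). The level was 25.3 CPM (13.5 to 43.3) and 9.68 CPM (5.83 to 15.1) in N cells, and 10.2 and 8.76 CPM in I cells. Within the I cells, those of cluster 21 had 30.1 and 17.4 CPM, and those of cluster 2 had 1 UMI in each library. K cells had 0 UMIs in WT, which allows up to 1.67 CPM, and 7 in the other library. In all non-endocrine cells the counts were 0 and 7.

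**Figure D4:**
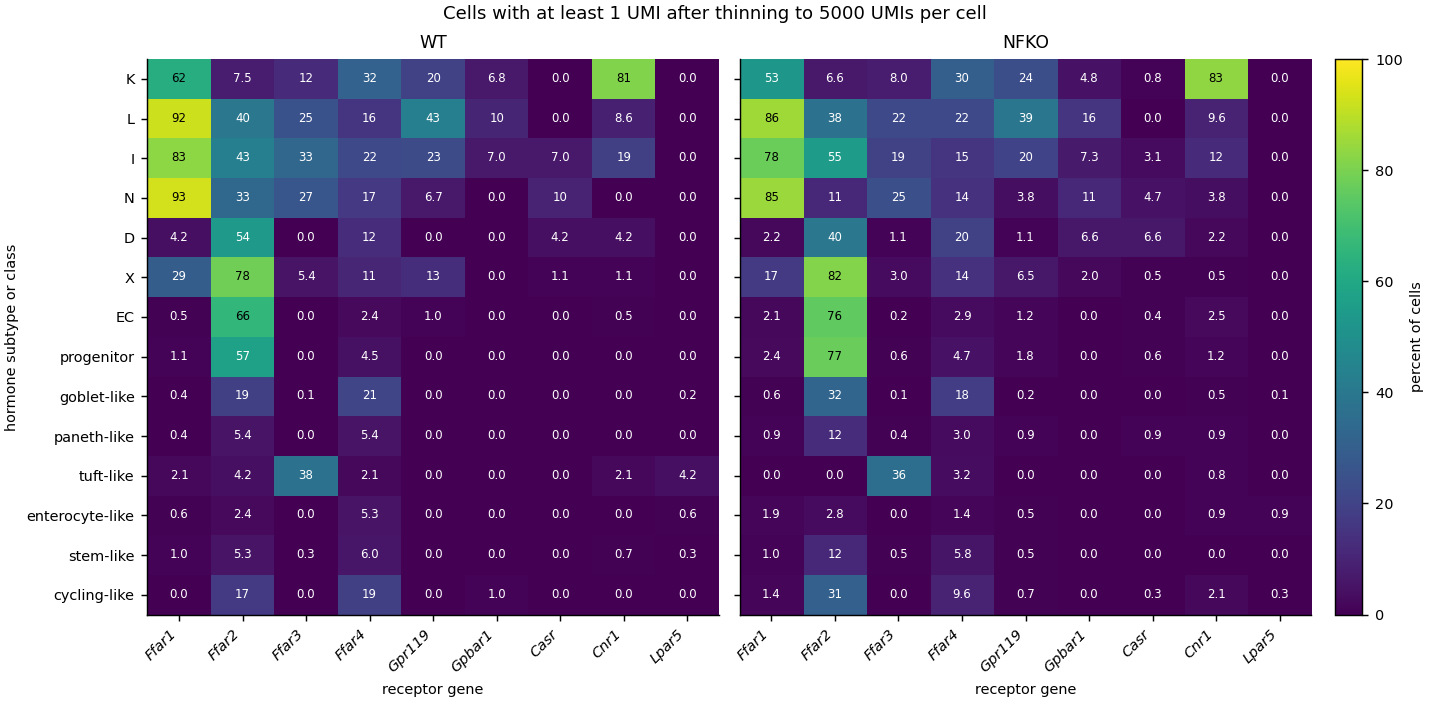
Percent of cells with at least 1 UMI of each of the 9 receptor genes (columns) in each subtype or class (rows), in WT (left) and the NFKO-labelled library (right), on 1 colour scale from 0 to 100%. Cells were thinned to 5000 UMIs, and those below that depth are left out. K cells stand out for Cnr1 (81.2% and 83.2%), L and N cells for Ffar1, X, EC and progenitor cells for Ffar2, and tuft-like cells for Ffar3.

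Cnr1, the receptor CB1 for endocannabinoids, which couples to Gi, was a gene of K cells. They held 351 CPM (324 to 379) in WT and 405 CPM (390 to 421) in the NFKO-labelled library, and 81.2% and 83.2% of K cells had the transcript (86.7% and 91.2% before thinning). I cells followed at 47.5 and 42.5 CPM and L cells at 26.5 and 28.8 CPM, and X cells had 1 and 3 UMIs. The I cells with Cnr1 were mainly those in cluster 2, the cluster of the K cells, at 143 and 194 CPM, against 7.76 and 29.5 CPM in cluster 7. L cells with more Pyy than Gcg had 75.6 and 73.4 CPM of Cnr1, and L cells with more Gcg 11.3 and 4.97 CPM. Within K cells, Cnr1 was found in 84.3% of cells with Ffar1 and 76.0% of those without in WT, and in 84.9% and 81.4% in the NFKO-labelled library, with overlapping intervals.

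Lpar5 was close to absent. It had 6 UMIs in WT endocrine cells and 7 in those of the NFKO-labelled library, or 0.522 and 0.238 CPM, no higher than the 0.508 and 0.292 CPM of the non-endocrine cells. It did not reach the minimum of 50 UMIs and was left out of the counts between libraries.

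The comparison of the libraries asked whether the receptors differ where FoxO1 is floxed. Over all endocrine cells 8 of the 9 receptors had at least 50 UMIs. Of these, 1 (Cnr1) was at least 1.5-fold higher in the NFKO-labelled library, compared with 6.54% of all 12806 genes with that minimum, and 0 were at least 1.5-fold lower, compared with 6.83%. The median log2 ratio of the 8 was 0.07, beside -0.03 for all genes. Most differences were thus small. Ffar1 went from 223 to 180.1 CPM (ratio 0.807, 0.769 to 0.846), Ffar3 from 24.1 to 18.7 CPM (0.776, 0.671 to 0.900) and Gpr119 from 41.0 to 36.2 CPM (0.884, 0.793 to 0.988). Ffar2 went from 171 to 196 CPM (1.15, 1.09 to 1.21), Ffar4 from 37.2 to 40.8 CPM (1.10, 0.982 to 1.23), Gpbar1 from 8.44 to 12.3 CPM (1.46, 1.16 to 1.84) and Casr from 3.05 to 3.06 CPM (1.01, 0.674 to 1.53). The L cells made up 13.3% of WT endocrine cells and 7.54% of the others, and weighting both libraries to the subtype mix of WT moved Ffar1 to 0.883 and Gpr119 to 1.01.

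Cnr1 passed the fold only just, and its ratio depended on which K cells were counted. Over all endocrine cells it went from 67.5 CPM (62.9 to 72.4) to 102 CPM (98.3 to 106), a ratio of 1.51 (1.39 to 1.64). Within K cells the ratio was 1.16 (1.06 to 1.26). K cells were 20.2% and 20.9% of endocrine cells but gave 15.6% and 22.4% of endocrine UMIs, and the WT K cells were shallower (median 7018 UMIs against 16691). With every cell given the same weight the ratio over all endocrine cells was 1.08, and with the subtype mix of WT 1.13. With another clustering seed it was 2.499: 184 WT endocrine cells that held 355 of the 776 Cnr1 UMIs then fell into clusters without a name, and 106 cells with 82 of 2995 UMIs did so in the other library.

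**Figure D5:**
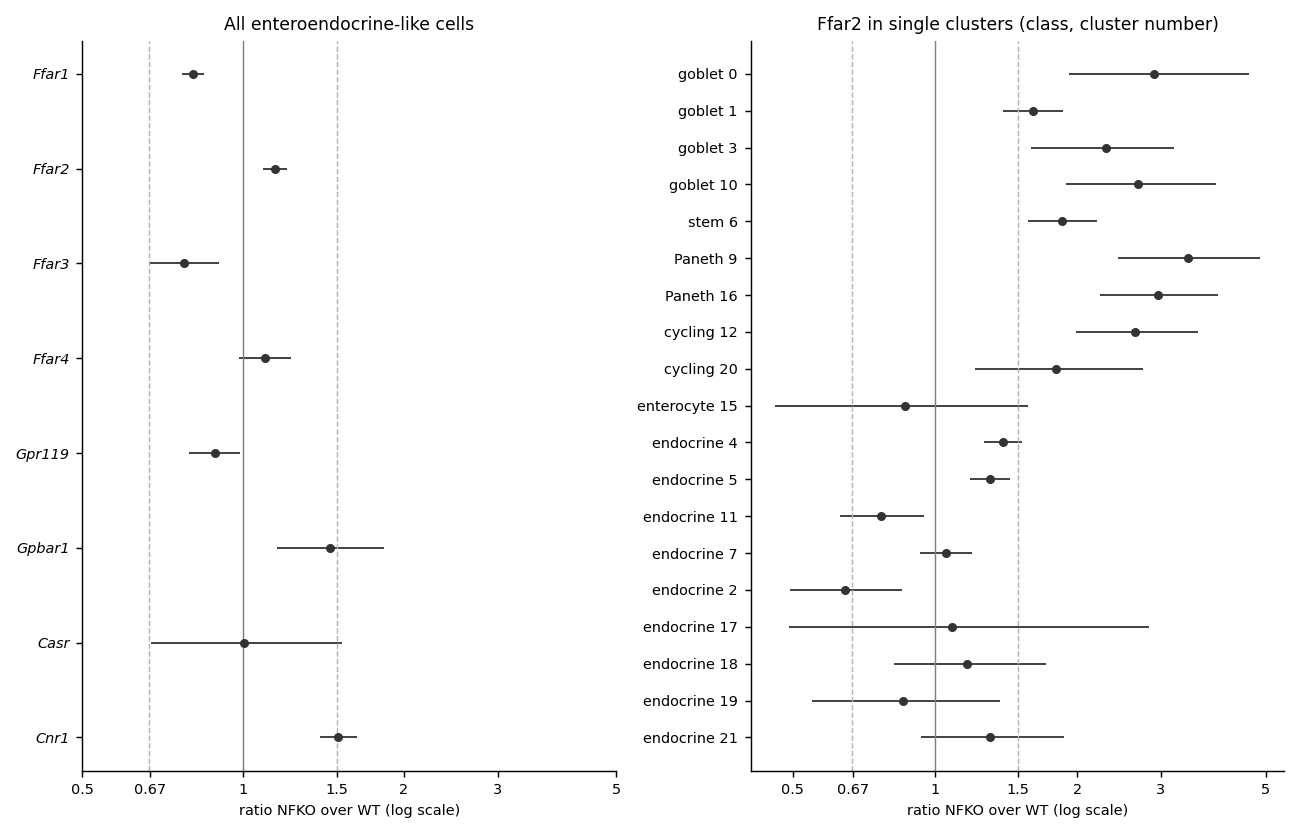
Ratio of the NFKO-labelled library over WT (horizontal axis, log scale) with 95% counting intervals for 8 receptors over all enteroendocrine-like cells (left) and for Ffar2 in each cluster with at least 50 Ffar2 UMIs (right). Solid lines mark 1 and dashed lines the 1.5-fold limits. Cnr1 alone reaches the upper limit on the left, at 1.51. On the right the goblet, stem, Paneth and cycling clusters all lie above 1.5, and enterocyte cluster 15 lies at 0.863. The endocrine clusters lie between 0.645 (cluster 2, past the lower limit) and 1.39.

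Within subtypes, receptors with the minimum were past the fold in both directions. Higher were Gpbar1 in L and N cells, Ffar2 in progenitors and Ffar1 in EC cells (ratio 1.71, 0.841 to 3.82). Lower were Ffar1 in X cells (0.585, 0.474 to 0.725) and Ffar2 in N cells (0.531, 0.338 to 0.852). The share of all genes that were lower was not counted within subtypes. In L cells 7 of the 9 receptors had the minimum and 1 was at least 1.5-fold higher (Gpbar1, ratio 2.23, 1.56 to 3.25), against 6.37% of all genes. Gpbar1 was higher in L cells led by Gcg (24.0 and 47.2 CPM) and in those led by Pyy (18.3 and 57.1 CPM), and in N cells the ratio was 3.46 (1.28 to 13.2) on 4 WT UMIs. In progenitors only Ffar2 had the minimum, and it was higher (ratio 1.93, 1.67 to 2.23), where 10.7% of all genes passed. In K cells 0 of 7 receptors passed, against 6.66% of all genes, and the highest ratio there was that of Gpr119 (1.47, 1.15 to 1.89). Among male-typed cells alone, Ffar2 in progenitors kept a ratio of 1.79 (1.29 to 2.43) on 9 cells of the NFKO-labelled library, and Gpbar1 in L cells one of 6.52 (3.53 to 11.7), also on 9 cells.

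Outside the endocrine cells the libraries differed in Ffar2. Goblet-like cells had 39.4 CPM (36.8 to 42.2) in WT and 80.1 CPM (77.2 to 83.1) in the NFKO-labelled library, a ratio of 2.03 (1.88 to 2.20), and the share of cells with Ffar2 was 18.97% and 32.5% (48.8% and 62.8% before thinning). Of the 3 receptors with the minimum in goblet-like cells (Ffar1, Ffar2 and Ffar4), 1 was at least 1.5-fold higher, against 7.56% of all genes, and 0 were lower, against 4.97%. The goblet-like cells of the libraries lay mostly in different clusters. Cluster 3, with Areg, Hspa1a and Hspa1b among its leading genes, held 588 WT cells and 21 of the others. Clusters 0 and 1 held 91 and 159 WT cells and 802 and 729 of the others. The ratio was nevertheless above 1.5 in each of the 4 goblet clusters, at 2.90 (1.92 to 4.61) in cluster 0, 1.61 (1.39 to 1.87) in cluster 1, 2.30 (1.60 to 3.20) in cluster 3 and 2.68 (1.89 to 3.92) in cluster 10. The share of all genes past the fold was not counted within single clusters, nor in the classes that follow. Stem-like cells (16.7 and 31.0 CPM, ratio 1.86), cycling cells (28.8 and 67.5 CPM, ratio 2.35) and Paneth-like cells (5.87 and 18.7 CPM, ratio 3.18) were higher in Ffar2 as well.

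In Paneth-like cells this was not particular to Ffar2. Ffar1 was at 0.481 and 2.17 CPM there (ratio 4.50, 2.17 to 10.2). On 2 or 3 WT UMIs each, the ratio was 5.00 (1.32 to 27.9) for Ffar3, 6.13 (1.27 to 58.3) for Gpr119 and 16.4 (4.06 to 143) for Cnr1, while that of Ffar4 was 1.12 (0.824 to 1.51). Over all non-endocrine cells Ffar1 (ratio 1.75, 1.30 to 2.38), Gpr119 (0.105 and 0.548 CPM, ratio 5.24, 2.35 to 13.8) and Cnr1 (0.478 and 1.35 CPM, ratio 2.83, 1.89 to 4.33) were higher in the NFKO-labelled library too. In goblet-like cells the ratio was 1.31 (0.713 to 2.53) for Ffar1 and 1.29 (0.613 to 2.91) for Cnr1. The part of free RNA and doublets in these low counts of endocrine transcripts, and in the Ffar2 ratios, was not tested.

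Tuft-like and enterocyte-like cells had little Ffar2, and their ratios had wide intervals. Ffar2 was at 3.01 and 3.44 CPM in tuft-like cells and at 5.404 and 6.53 CPM in enterocyte-like cells, the ratio being 1.14 (0.228 to 11.1) in the former and 1.21 (0.763 to 1.93) in the latter. For Ffar1 in enterocyte-like cells the ratio was 5.85 (2.03 to 23.1), from 4 and 26 UMIs, and for Cnr1 it was 14.4 (2.24 to 604), from 1 and 16 UMIs. Among male-typed goblet-like cells (760 WT, 118 of the other library) the Ffar2 ratio was 1.85 (1.57 to 2.17). Ffar4 was lower over all goblet-like cells, with a ratio of 0.868 (0.801 to 0.94), and lower still within each of the 4 goblet clusters. The ratio was 0.541 (0.426 to 0.695) in cluster 0, 0.746 (0.642 to 0.871) in cluster 1, 0.361 (0.144 to 0.747) in cluster 3, on 7 UMIs of the NFKO-labelled library, and 0.834 (0.627 to 1.12) in cluster 10. Ffar4 was thus past the 1.5-fold limit in 2 of the 4 clusters, and Ffar2 and Ffar4 lay on opposite sides of 1 in each of them. The share of all genes past that limit was not counted within these clusters. The goblet markers summed over endocrine cells were 3323 CPM in WT and 5656 CPM in the NFKO-labelled library, with 0 of the 10 markers at 0 in either, and their part in the endocrine values of Ffar2 and Ffar4 was not tested.

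Genes with the most similar pattern over the same 28 points, of 11669 ranked, included 1 hormone gene, Cck, for both Ffar1 and Gpr119. For Ffar1 they included Etv1 (r = 0.969) and Cck (0.956), and for Gpr119 Cck (0.941), Pid1 (0.938) and Rragb (0.938). Gpbar1 ran with Cltrn (0.945), Unc80 (0.942) and Bdnf (0.927), and Ffar1 and Gpr119 with each other (0.94). For Ffar2 they were Ica1 (0.907), Zfp37 (0.892) and Foxa2 (0.881), for Ffar3 Lect2 (0.908), Fcna (0.895) and Pfkfb3 (0.891), and for Ffar4 Rasa4 (0.876), Hyou1 (0.846) and Rhbdd1 (0.826). Casr ran with D930028M14Rik (0.894), F5 (0.856) and Atp8b5 (0.843), and Cnr1 with Rgs11 (0.906), Gatm (0.897) and 4933407L21Rik (0.893).

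Other genes of nutrient sensing were counted by list in the endocrine cells, with the same fold and minimum. These ratios are over all endocrine cells and were not weighted to the subtype mix of WT, so the part of the mix in them was not tested. Beside each list stand the shares over all genes given above, 6.54% higher and 6.83% lower, and the median log2 ratio of all genes, -0.03. Of 19 other nutrient or metabolite receptors 7 had the minimum, 1 was higher and 0 lower, with a median of -0.21. The 1 was Hcar1, the lactate receptor, at 1.74 CPM in WT and 4.22 CPM in the NFKO-labelled library (ratio 2.42, 1.504 to 4.11), while the fatty acid receptor Cd36 (0.749), the bile acid receptor Nr1h4 (0.865) and the lysophosphatidic acid receptor Lpar6 (0.866) stayed within the fold. Of 23 neural and hormone receptors 16 had the minimum, 6 were higher and 4 lower, with a median of 0.14. Among them were the GLP-1 receptor Glp1r (10.4 and 39.2 CPM, ratio 3.76), Ramp1, a partner of the CGRP receptor (ratio 2.58), the somatostatin receptor Sstr1 (30.5 and 58.9 CPM, ratio 1.93) and the adrenergic receptor Adra2a (9.66 and 3.81 CPM, ratio 0.395). Of 41 G proteins and second messenger enzymes 33 had the minimum, 1 was higher (Rgs4, a regulator of G protein signalling, ratio 1.55) and 2 were lower (the inhibitory subunit Gnai1, 111 and 66.1 CPM, ratio 0.595, and the calcium channel Itpr2, ratio 0.611), with a median of -0.03. The adenylyl cyclase Adcy8 had a ratio of 1.49. Gnai1 was among the leading genes of cluster 7, the cluster led by Gcg, which held 18.75% of WT endocrine cells and 9.57% of the others. Glp1r was among those of cluster 18, led by Sst, which held 3.46% and 5.65%. Of 22 nutrient transporters and glucose-sensing genes 21 had the minimum, 6 were higher and 1 lower, with a median of 0.31. The bile acid exporter subunit Slc51b was at 4.44 and 10.4 CPM (ratio 2.35), and the cystine transporter subunits Slc7a9 and Slc3a1 had ratios of 2.14 and 1.71. Fabp5, a fatty acid binding protein, was at 2075 and 3414 CPM (ratio 1.65). In both libraries Ramp1, Adra2a, Itpr2, Slc51b and Slc7a9 were lower in endocrine than in all other cells, and the part of other cells' RNA in their ratios was not tested. Of 14 enzymes that make or break down endocannabinoids and lysophospholipids, 13 had the minimum, 3 were higher and 1 was lower, with a median of 0.03. The higher genes were Abhd6 (ratio 1.82), which breaks down 2-arachidonoylglycerol, the lipid phosphatase Plpp1 (1.72) and the phosphodiesterase Gde1 (1.60). Abhd6 and Gde1 were also lower in endocrine than in all other cells in both libraries, and the part of other cells' RNA was not tested. The lower gene was Napepld, which makes the ethanolamide ligands of Cnr1 and Gpr119, at 11.5 and 6.29 CPM (ratio 0.548, 0.436 to 0.691).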

How the data were processed

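Single-cell RNA-Seq libraries were made by the authors with the 10x Genomics 3′ kit from sorted Tomato+ cells, 1 library a group. The deposited values are raw counts of UMIs per gene and barcode. Per the submitters' processing notes they came from Cell Ranger 5.0.1 and the build mm10. The gene annotation and the filter on barcodes are not given in the sources used here, nor was an annotation of cells used.

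Of 5051 WT barcodes and 7540 of the NFKO-labelled library, 38.1% and 25.3% were removed for holding under 500 genes, under 1000 UMIs or over 25% mitochondrial UMIs. The mitochondrial limit was passed by 35.6% of WT barcodes and 17.3% of the others. Scrublet in scanpy 1.11.5 marked only 3 and 0 doublets, so the highest scores were removed at 0.8% per 1000 barcodes (126 and 340 cells). The kept cells held 78424392 and 111522270 UMIs. Seurat 5.3.0 (R 4.3.3) clustered the cells of both libraries jointly at resolution 0.8 from 20 neighbours in 30 principal components of 2000 variable genes, with no integration and leaving out 19 genes, the 9 receptors among them. A cluster was named where at least 3 markers of a class stood 2-fold above all other cells and had UMIs in 10% or more of its members. A peptide hormone subtype needed 5000 CPM of its hormone in the cell, EC cells 500 CPM of Tph1 and Tac1, and progenitors 1 UMI of Neurog3. These limits were set after the data were seen.

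Counts were summed per subtype and library. Levels have exact Poisson, shares exact binomial (Clopper-Pearson) and ratios exact conditional binomial intervals at 95%, which cover counting error only. A count of 0 was given the limit that 3 UMIs allow. No p-value was computed. The intervals and the fold rule were tested on simulated Poisson counts without spread between cells or mice. The intervals assume the same, so that test cannot show how they hold where such spread exists. All 9 receptors are named, for each list the 4 members with the largest fold either way among those with at least 100 endocrine UMIs, and for each receptor with as many the 3 genes most like it, of which 1 is not reported here. The receptors and lists were chosen with earlier results of these data known. Gene positions are from GENCODE M21 and promoters from RefSeq, with a window found for each of the 9 genes. Alternatives tried were another scaling, weighting, clustering seed, cell filter, doublet rate, thinning depth, subtype rule and comparison class. A small RNA gene, Gm25902, overlaps Casr on the same strand.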

Additional observations from a re-analysis of the deposited data

Results flagged for a closer look

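For 2 receptors the ratio of the NFKO-labelled library over WT was past 1.5-fold in opposite directions in different kinds of cells. Ffar1 had a ratio of 1.71 (0.841 to 3.82) in EC cells, from 41 and 10 UMIs, and of 0.585 (0.474 to 0.725) in X cells. The EC interval includes 1, and among male-typed EC cells the ratio was 0.788 (0.0171 to 6.5), on the other side of 1, from 1 and 6 UMIs. In X cells it was 0.123 among male-typed cells, and within clusters 7 and 4 it was 0.919 and 0.697, neither past the fold. Ffar2 had a ratio of 3.18 (2.57 to 3.97) in Paneth-like cells and of 0.531 (0.338 to 0.852) in N cells, from 61 and 30 UMIs. In Paneth-like cells it was 3.42 and 2.96 within clusters 9 and 16 and 5.60 (3.34 to 8.97) among male-typed cells, and other receptors were higher there too. Most N cells of both libraries lay in cluster 17, but in different proportions. Cluster 17 held 39 of 66 in WT and 94 of 131 in the NFKO-labelled library, and cluster 7 held 26 and 21. Their Ffar2 ratio was 0.602 (0.312 to 1.13) within cluster 7 and 2.61 (0.678 to 22.2) within cluster 17, from 42 and 2 UMIs, so that its direction turned. Among male-typed N cells it was 0.0873 (0.00212 to 0.54), from 1 and 22 UMIs. With 1 library a group these differences were not tested.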

How the results depend on the processing

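The count of receptors at least 1.5-fold higher in the NFKO-labelled library was 1. It was 0 with each cell weighted equally, and 2 with male-typed cells only (Gpbar1 and Casr), without the 3 cells with most UMIs of a receptor (Gpbar1 and Cnr1) and with more doublets removed (Gpbar1 and Cnr1). With the subtype mix of WT it was 1, but Gpbar1 in place of Cnr1. The count of lower receptors was 0. It was 1 with each cell weighted equally (Ffar3), 2 with male-typed cells only (Ffar1 and Ffar3) and 1 without a minimum of UMIs (Lpar5). Apart from the construction of each alternative, the cause was not tested. The counts of receptors enriched in endocrine cells (6 to 7 in WT, 7 in the NFKO-labelled library), of receptors in at least 5% of endocrine cells (5 to 7) and of receptors with the same highest subtype in both libraries (6 of 8) stayed within 1.5 times of the main value under every alternative run. The receptors behind the last count did change with the subtype taken from the leading hormone of the cluster. Ffar2 and Ffar3 then had the same highest subtype in both libraries. Ffar1 (L in WT, N in the other library) and Casr (N and I) no longer did. Of 94 recomputed ratios of single receptors, 21 left the counting interval of the main value and 0 of those past the fold changed direction. Left out of the 94, for holding under 50 UMIs, were the ratios in male-typed cells of Ffar1 in EC cells (0.788, where the direction turned), of Ffar2 in N cells (0.0873) and of Gpbar1 in N cells (1.92). Male-typed cells, other seeds and stricter cells within subtypes were added after seeing the data. No paired analysis was possible because each group has 1 library. Depth limits Casr, Gpbar1 and Lpar5 most, and the sex of the mice and the group cannot be told apart except in the few male-typed cells.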
